A study of Danio rerio with 8 samples.

Results

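The genes gata1a, slc4a1a, hmbsa and alas2 were taken as genes of the developing red blood cell. Here they were followed in hearts dissected from zebrafish larvae treated with sorafenib. They were found by name: a probe was a member where its RefSeq accession maps to 1 of these 4 symbols, whatever its signal. That gave 8 probes among the 43603 of the array, and 4 genes among the 10536 that could be named. Of the 8 probes, 3 target slc4a1a, 2 hmbsa, 2 alas2 and 1 gata1a. Control larvae were kept in the vehicle and treated larvae in 1 uM sorafenib from 72 to 96 hours post-fertilization, so hearts of both groups were at 4 days post-fertilization. Sorafenib, a kinase inhibitor used against cancer, blocks RAF kinases as well as VEGF and PDGF receptors. RNA of the hearts was read on 8 one-colour arrays made by Agilent, with 4 for each group, and per the labels each came from an independent experiment. The sources used here do not give the strain, the vehicle or the number of hearts in a sample.

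Red blood cells of fish keep their nucleus, and the heart of a larva is filled with circulating blood, so a dissected heart carries red cell RNA. The transcription factor Gata1 switches on the red cell program, including globin genes, enzymes of heme synthesis and proteins of the cell membrane. The product of alas2 makes 5-aminolevulinate, the committed step of heme synthesis in red cells, and the product of hmbsa joins porphobilinogen units further along the same route. Band 3, the product of slc4a1a, exchanges chloride for bicarbonate and ties the membrane to its skeleton. Zebrafish mutants in gata1a, alas2 and slc4a1a are known for anemia.

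Levels are log2 processed signals from which the 75th percentile of the same array was subtracted, so 0 is that percentile. They are comparable between arrays for 1 probe but not between probes. Differences are sorafenib minus control on that log2 scale. A probe was tested with limma where 4 or more of the 8 arrays read it well above background. All 8 member probes met this, and 6 of them on every array. p-values were adjusted by the Benjamini-Hochberg method over all 25059 probes tested. The arrays lie on 2 slides that hold replicates 1 and 2, and 3 and 4, of both groups.

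Of the array as a whole, 54.98% to 59.54% of spots were well above background, 0 spots were saturated, and arrays correlated at 0.943 to 0.987. The heart muscle genes of the label were present, 24 of 25 with a probe being measured, and myl7, a cardiac myosin light chain gene, stood at 4.91 to 6.15. Genes of other tissues were measured about as often, 32 of 32 neural genes and 26 of 27 liver and plasma protein genes with a probe. The share measured therefore does not set heart muscle apart. Several arrays stood apart in markers of other tissues. The mean of 32 neural genes, each relative to its mean over all arrays, was -0.75 and -0.95 in sorafenib replicates 2 and 3 against 0.05 to 0.48 in controls. The mean of 26 liver and plasma protein genes was 0.55 and 1.07 in the same arrays against -0.75 to 0.34 in controls. In control replicate 2 the mean of 6 globin genes was -0.82, where the other controls ranged from -0.01 to 0.35, and 5 of the 6 genes were lowest in that array. In sorafenib replicate 4 this mean was -0.74, with hbba2 alone far below the other arrays. The differences of the 4 genes are therefore also given without control replicate 2 and without sorafenib replicates 2 and 3. Without sorafenib replicate 4 the differences were 1.27 (slc4a1a), 0.80 (hmbsa), 0.58 (gata1a) and -0.07 (alas2) by the brightest probes. The part of the other tissues in it was not tested. In RNA from whole hearts, fewer cells of a type and less RNA per cell cannot be told apart.

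In hearts exposed to sorafenib, slc4a1a and hmbsa stood higher than in every control by their brightest probes, whereas the groups overlapped for alas2 and gata1a. The largest difference was that of slc4a1a, 1.29 ± 0.39 (SE, n = 4 arrays per group), or 2.45-fold. None of these differences passed the adjustment over all probes. At an adjusted p under 0.05 limma called 0 of 8 member probes, and 0 of 25059 probes in all, which is 0.0% in either direction. At an unadjusted p under 0.05, limma held 3 of 8 member probes as higher and 0 as lower, where 3.96% of all probes were higher and 3.13% lower (7.1% in either direction). The groups did not overlap, with sorafenib higher, for 2 of 8 member probes and for 2.18% of all probes, and with sorafenib lower for 0 of 8 and for 1.87% of all probes (4.05% in either direction). A difference above 0 was seen for 7 of 8 member probes and for 47.8% of all probes. The median of the 8 member probes was 0.46, and that of all probes was -0.02. Probes of a gene share their target, so these 8 are not independent, and 2 of the 3 with the smallest unadjusted p belong to slc4a1a. The 4 genes were also chosen with earlier results of these data known. No conclusion is therefore drawn from a member share above that of all probes.

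**Figure D1:**
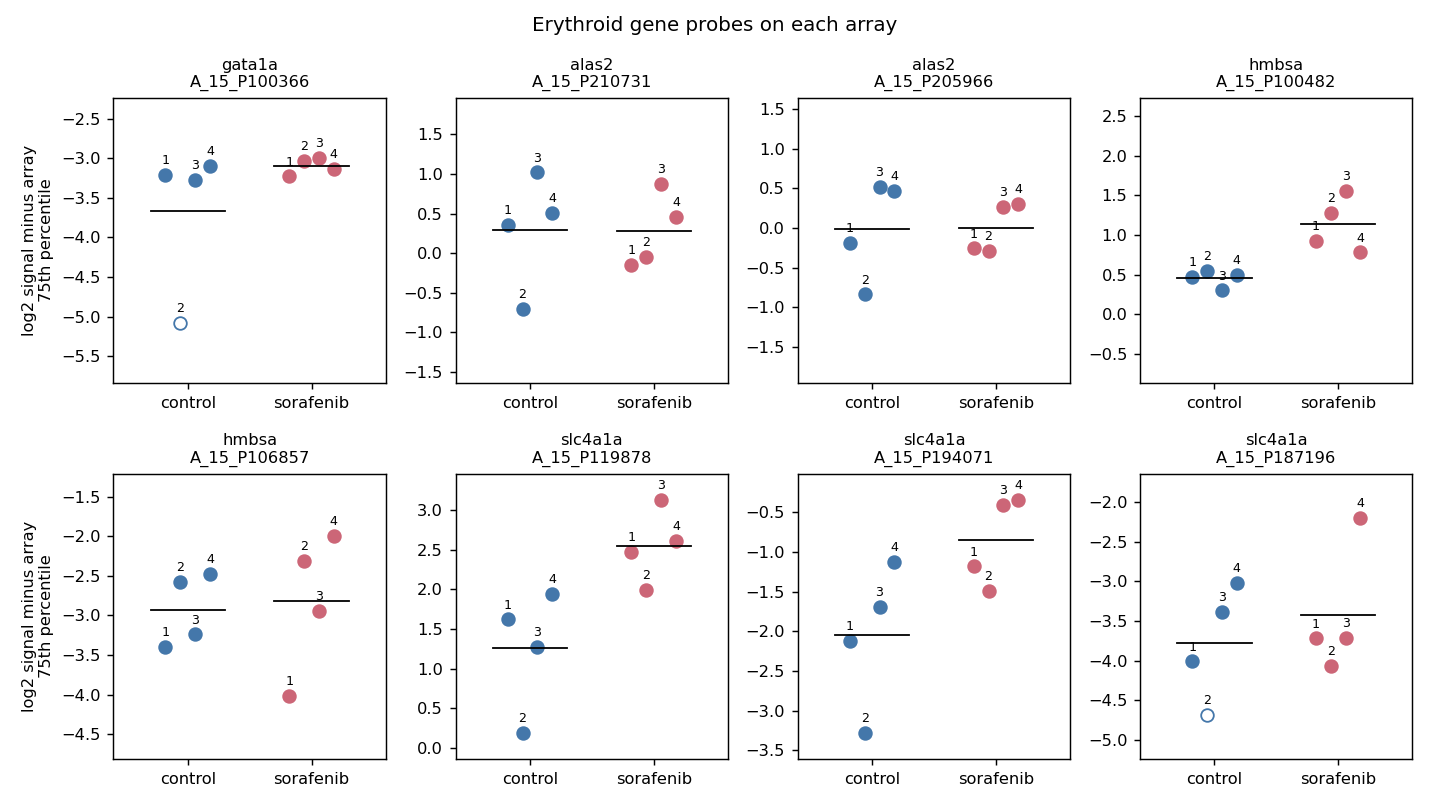
Level of each of the 8 member probes on each array (log2 scale, relative to the 75th percentile of that array). Points are arrays numbered by replicate, lines are means of 4 arrays, and open points are not well above background. The panels share a scale length but not its position, since levels of different probes are not comparable. Groups are separate for the brightest slc4a1a and hmbsa probes and overlap for the other 6.

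The transcription factor gene gata1a is read by probe A_15_P100366, designed on NM_131234. Its levels in control replicates 1 to 4 were -3.21, -5.08, -3.27 and -3.10. With sorafenib they were -3.23, -3.04, -3.0 and -3.14. Control replicate 2 lay far below all other arrays and alone did not read the probe well above background. The remaining 7 arrays lay close together in both groups. The control mean was -3.66 ± 0.95 (SD, n = 4) and the sorafenib mean -3.10 ± 0.10. The difference of 0.56 ± 0.41 (SE) had an interval at 95% confidence from -0.36 to 1.48 and an adjusted p of 0.744 in limma. Without control replicate 2 it was 0.09, and without sorafenib replicates 2 and 3 it was 0.48. By slide, the difference was 1.01 on slide 1, which holds that array, and 0.11 on slide 2. After another background correction, normexp with extreme local backgrounds clipped, the difference was 0.12. That correction adds an offset of 50 to every signal, which by itself shrinks the differences of probes as dim as this one. The processed signal was 2.79 on control replicate 2 and 9.0 to 17.3 on the other 7 arrays, so gata1a was read near the limit of measurement.

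The gene alas2 opens heme synthesis in red cells and was read by 2 probes on NM_131682. The brighter, A_15_P210731, stood at 0.36, -0.70, 1.02 and 0.51 in control replicates 1 to 4. With sorafenib it stood at -0.15, -0.05, 0.88 and 0.46. The groups overlapped, and control replicate 2 was again the lowest array. The mean was 0.30 ± 0.72 in controls and 0.28 ± 0.48 with sorafenib (SD, n = 4 each). The difference was -0.01 ± 0.38 (SE), with an interval from -0.86 to 0.83 and an adjusted p of 0.995 in limma. The interval reaches from a fold of 0.551 to 1.78, so changes within that range could not be told from none with 4 arrays per group. The second probe, A_15_P205966, differed by 0.01 ± 0.32 (adjusted p = 0.993 in limma) and also overlapped. Its control levels were -0.19, -0.84, 0.52 and 0.47, and its sorafenib levels -0.26, -0.29, 0.26 and 0.30. In each group both probes were lower in replicates 1 and 2 (slide 1) than in replicates 3 and 4 (slide 2). With the slide as a block, the difference of the brighter probe stayed at -0.01, with an SE of 0.26 in place of 0.38. Without control replicate 2 the difference was -0.35 for the brighter probe and -0.26 for the other, and without sorafenib replicates 2 and 3 that of the brighter probe was -0.14.

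The gene hmbsa encodes hydroxymethylbilane synthase, which acts downstream of alas2 in the same route. Its brighter probe, A_15_P100482 on NM_201154, stood at 0.47, 0.55, 0.30 and 0.50 in control replicates 1 to 4. The sorafenib levels were 0.93, 1.28, 1.56 and 0.78. All 4 sorafenib arrays lay above all 4 controls, with replicates 2 and 3 the highest, and control replicate 2 was not low. The mean was 0.45 ± 0.11 in controls and 1.14 ± 0.35 with sorafenib (SD, n = 4 each). The difference was 0.68 ± 0.20 (SE), or 1.61-fold with an interval from 1.17 to 2.21, and had an unadjusted p of 0.00817 and an adjusted p of 0.583 in limma. It was 0.59 on slide 1 and 0.77 on slide 2. The highest arrays were those apart in neural and liver markers, and without both of them the difference was 0.40 (adjusted p = 1.0 in limma). Without control replicate 2 it was 0.72. The second probe of hmbsa, A_15_P106857, was much dimmer and did not separate the groups. Processed signals were 5.21 to 38.3 with this second probe and 138 to 288 with the brighter one. Its levels were -3.40, -2.58, -3.24 and -2.48 in controls and -4.02, -2.31, -2.94 and -2.0 with sorafenib. Sorafenib replicate 1 was the lowest array and sorafenib replicate 4 the highest. The difference was 0.11 ± 0.43 (adjusted p = 0.958 in limma).

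The gene slc4a1a encodes band 3, the anion exchanger of the red cell membrane. Its brightest probe, A_15_P119878 on NM_198338, stood at 1.62, 0.19, 1.27 and 1.94 in control replicates 1 to 4. The sorafenib levels were 2.47, 1.99, 3.13 and 2.61. The groups did not overlap, but the highest control and the lowest sorafenib array lay close together, and control replicate 2 was the lowest array. The mean was 1.26 ± 0.76 in controls and 2.55 ± 0.47 with sorafenib (SD, n = 4 each). The fold of 2.45 had an interval from 1.34 to 4.48, with an unadjusted p of 0.00802 and an adjusted p of 0.583 in limma. The log2 difference was 1.33 on slide 1 and 1.26 on slide 2. Without control replicate 2 it was 0.94, and without sorafenib replicates 2 and 3 it was 1.29. After normexp without clipping, in which extreme local backgrounds of 2 sorafenib arrays widen the correction, it was 0.58, and with clipping 1.12. In the series table deposited by the authors it was 1.15.

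The other probes of slc4a1a were dimmer. Probe A_15_P194071 stood at -2.12, -3.28, -1.69 and -1.12 in controls and at -1.18, -1.49, -0.40 and -0.34 with sorafenib. Sorafenib replicates 3 and 4 lay above every control, while replicates 1 and 2 lay below control replicate 4. The difference was 1.2 ± 0.46 (SE), with an unadjusted p of 0.0262 and an adjusted p of 0.684 in limma, and 0.79 without control replicate 2. It was 0.57 after normexp without clipping, 0.47 after clipped normexp and 0.59 in the series table deposited by the authors. The offset of 50 in clipped normexp and the floor of that table shrink the differences of dim probes. Probe A_15_P187196 stood at -4.01, -4.68, -3.39 and -3.02 in controls and at -3.72, -4.07, -3.71 and -2.20 with sorafenib. Control replicate 2 was not well above background with it, and sorafenib replicate 4 was the only array above every control. Its difference was 0.35 ± 0.47 (adjusted p = 0.868 in limma), 0.04 without control replicate 2 and -0.06 without sorafenib replicate 4.

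Probes of the same gene were compared directly by their difference within each array, in 4 pairs, with exact two-sided permutation tests over the 70 ways to split the arrays. The brightest slc4a1a probe differed by 0.09 more than A_15_P194071 between the groups (exact p = 0.83, adjusted over the 4 pairs 0.971). It differed from A_15_P187196 by 0.95 (exact p = 0.114, adjusted 0.457). The pair of hmbsa probes differed by 0.57 (exact p = 0.343, adjusted 0.686) and that of alas2 by -0.03 (exact p = 0.971, adjusted 0.971). None of the 4 passed, and the within-array differences varied widely between arrays. With 4 arrays per group the smallest possible exact p is 0.0286, which for 1 pair alone adjusts to 0.114. A single pair could therefore not pass, so no conclusion on whether the probes agree is drawn. Which exons or transcript forms the probes of a gene read was not analysed here.

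Globin genes of the same array give a measure of red cell RNA. Of 7 globin genes with a named probe, 6 were measured and hbaa2 was not. The embryonic alpha globin genes hbae1.1, hbae3 and hbae4 differed by 0.30, 0.28 and 0.47, and the embryonic beta globin genes hbbe2 and hbbe3 by 0.36 and 0.29. For these 5 genes control replicate 2 was the lowest array. Without it their differences were 0.03, 0.02, 0.04, 0.12 and -0.12. The adult beta globin gene hbba2 differed by -0.64 and followed another course, at -3.38 in sorafenib replicate 4 and 0.98 to 2.80 in the other sorafenib arrays. None of the 6 was called by limma, and their median was 0.29 beside 0.03 over the 8904 named genes tested. Globin genes are close copies of each other, and binding of related transcripts to a probe was not tested.

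Relative to the mean of the 6 globin genes, slc4a1a was higher with sorafenib by 1.12. The values were -2.31, -2.58, -2.45 and -1.64 in controls and -1.69, -1.56, -1.03 and -0.24 with sorafenib. The groups overlapped, because control replicate 4 lay above sorafenib replicate 1 (exact permutation p = 0.0571, adjusted over the 4 genes 0.229). This difference was 1.00 without control replicate 2 and 0.82 without sorafenib replicate 4. It was 0.95 when hbba2 was left out of the mean, with all sorafenib arrays above all controls (exact p = 0.0286, adjusted 0.114). That exact p is the smallest possible with 4 arrays per group, so 1 gene alone could not pass the adjustment over the 4 genes. For hmbsa the difference relative to globins was 0.51 (exact p = 0.286, adjusted 0.571), and control replicate 2 was the highest control. For gata1a it was 0.38 (exact p = 0.429, adjusted 0.571) and for alas2 -0.19 (exact p = 0.686, adjusted 0.686). With hbba2 left out of the mean these 3 differences were 0.34, 0.22 and -0.36, each at an adjusted exact p of 0.429. Without control replicate 2 they were 0.78, 0.15 and -0.28, and without sorafenib replicate 4 they were 0.35, 0.12 and -0.53. Control replicate 2 was thus low in gata1a, alas2 and slc4a1a as in 5 of the globin genes, and not in hmbsa.

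**Figure D2:**
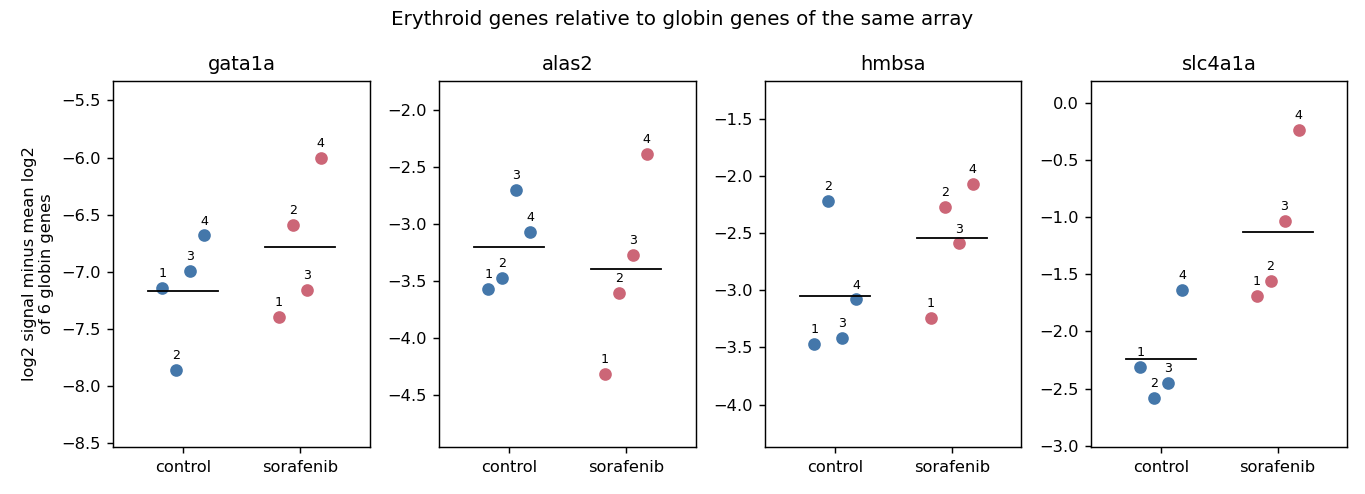
Each of the 4 genes by its brightest probe relative to the mean of 6 globin genes on the same array (log2 difference). Points are arrays numbered by replicate and lines are means of 4 arrays. The slc4a1a values run from -2.58 to -1.64 in controls and from -1.69 to -0.24 with sorafenib, and the groups overlap in all 4 panels.

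The courses of the 4 genes over the arrays differed from each other. These correlations over 8 arrays describe values that share extraction, labelling and scaling, and they carry no test. The level of slc4a1a followed that of gata1a (Pearson r = 0.81, Spearman rho = 0.74) and of hmbsa (r = 0.67, rho = 0.76). The first of these was 0.32 without the 2 arrays farthest from the median of gata1a, and the second 0.60 without the 2 farthest for slc4a1a. For hmbsa and alas2, enzymes of the same route, r was 0.01 and rho -0.24, and r was -0.47 without the 2 arrays farthest for hmbsa. The gene most like alas2 among 8243 candidates was hemgn, which encodes hemogen, a nuclear protein of blood-forming cells, with r = 0.92, rho = 0.81 and r = 0.88 without the 2 farthest arrays. Next came epb41b, which encodes the membrane skeleton protein 4.1 (r = 0.90, rho = 0.86), and opa1, for a GTPase of mitochondrial fusion (r = 0.90, rho = 0.81). Differences of these 3 genes between the groups were 0.34, 0.29 and -0.01.

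For gata1a the nearest genes were the zinc transporter gene slc30a4 (r = 0.95, rho = 0.45), ciz1b (r = 0.92, rho = 0.43) and the embryonic globin gene hbbe3 (r = 0.92, rho = 0.52). Without the 2 farthest arrays, control replicate 2 among them, r was -0.04, 0.05 and -0.06, so these likenesses rest on those arrays. For slc4a1a the nearest were LOC562098 (r = 0.94, rho = 0.95), the axonemal dynein gene dnali1 (r = 0.94, rho = 0.90) and fam8a1b (r = 0.94, rho = 0.90). Leaving out its 2 farthest arrays gave r of 0.92, 0.71 and 0.82. For hmbsa they were the threonine aldolase gene tha1, the membrane fusion gene snap23.2 and taco1, which encodes a translation factor of mitochondria, each at r = 0.99. Their rho was 0.98, 0.98 and 1.00, and r without the 2 farthest arrays 0.95, 0.96 and 0.95. Which cells of the heart gave the hmbsa signal was not analysed here. With the mean of the 5 globin genes other than hbba2, r was 0.92 for gata1a, 0.83 for slc4a1a, 0.72 for alas2 and 0.35 for hmbsa (rho 0.36, 0.52, 0.38 and 0.19). Without the 2 farthest arrays of each gene these r were -0.52, -0.07, 0.50 and 0.11. Between gata1a and alas2 r was 0.70 (rho = 0.36), and -0.43 without the 2 farthest arrays.

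**Figure D3:**
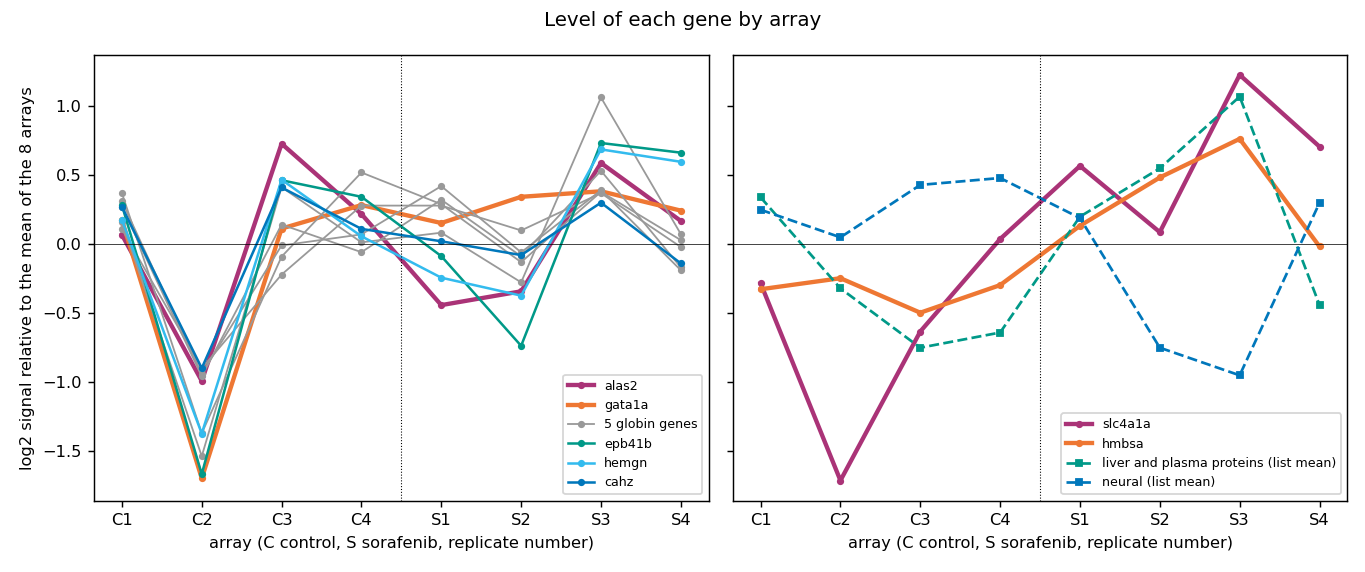
Level of each gene on each array relative to its mean over the 8 arrays (log2), for control (C) and sorafenib (S) replicates. On the left, alas2, gata1a, hemgn, epb41b, cahz and 5 globin genes (hbba2 left out) are all lowest in control replicate 2. Other genes of the red cell lists, not shown, were mixed in this. Among those also lowest in that array were add1 (2.10), bcl11aa (-2.82) and klf1 by its brightest probe (-3.97). The second klf1 probe was lower in sorafenib replicates 2 and 4. Both sptb and rhag were lower in another control, and klf17 was highest among the controls in that array. On the right, slc4a1a is also lowest there and hmbsa is not, and both peak in sorafenib replicate 3, beside the means of 26 liver and plasma protein genes and 32 neural genes.

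Of 22 genes of heme synthesis and export in the list, 13 were measured, 5 with a positive and 8 with a negative difference, and their median was -0.01. Without sorafenib replicates 2 and 3, 2 of 13 were positive, the median was -0.27, and 1 gene was lower at an unadjusted p under 0.05. With all arrays none was called, and hmbsa was the only one with an unadjusted p under 0.05. The gene alas1, for the 5-aminolevulinate synthase of other tissues, differed by -0.28 ± 0.27 (SE, n = 4 per group). The paralog hmbsb differed by 0.20 ± 0.18, with levels of 0.58 to 1.00 in controls and 0.67 to 1.17 with sorafenib. The genes of later enzymes of the route, urod and cpox, differed by -0.01 ± 0.28 and 0.18 ± 0.35. The uroporphyrinogen III synthase gene uros differed by -1.19 ± 0.70, but its probe was well above background on 2 of 4 sorafenib arrays, and the difference was -0.03 after clipped normexp. The heme exporter gene flvcr1 differed by -0.63 ± 0.38, and by -0.16 without sorafenib replicates 2 and 3. The probe of fech, for ferrochelatase, was well above background on 1 of 8 arrays and was not tested.

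Genes that handle iron were measured for 14 of 28 in the list, with a median of 0.21, 9 positive and none called. Hepcidin, the hormone that limits iron export, is encoded by hamp and is made mainly in liver. Its difference was the largest of the list, 2.08 ± 0.90. It was 1.2, -0.63, -2.41 and -2.55 in controls and 1.83, 2.20, 0.62 and -0.74 with sorafenib. The groups overlapped, with control replicate 1 high in hamp as in the liver list. The frataxin gene fxn differed by 0.36 ± 0.16, and its groups did not overlap, though control replicate 4 at -0.20 and sorafenib replicate 4 at -0.15 lay close. The transferrin receptor gene tfr1b, through which cells take up iron, differed by -0.36 ± 0.20. The mitochondrial iron importer gene slc25a37 was well above background on 4 of 8 arrays only, replicates 3 and 4 of both groups, and differed by 0.44 ± 0.83. The adjusted p in limma was 0.692 for hamp and fxn, 0.700 for tfr1b and 0.906 for slc25a37.

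Transcription factors and cofactors of red cells had a median of -0.09 over 21 measured of 33 genes, with 9 positive and 12 negative, and of 0.01 with 12 positive without sorafenib replicates 2 and 3. None had an unadjusted p under 0.05 by its brightest probe. The Krüppel-like factor gene klf1 differed by -0.31 ± 0.43 (0.03 after clipped normexp). A second klf1 probe differed by -0.85 ± 0.37, with overlapping groups, an unadjusted p of 0.0437 and an adjusted p of 0.692 in limma. Both klf1 probes were well above background on all 8 arrays and close in brightness. Their control means were -2.86 and -2.59 and their sorafenib means -3.17 and -3.45, in that order. Which probe stood for klf1 therefore decided whether it was lower at an unadjusted p under 0.05. The related klf17, a red cell factor of zebrafish, differed by 0.21 ± 0.25. Genes of factors that act with Gata1, tal1 and lmo2, differed by -0.47 ± 0.31 and -0.59 ± 0.36, and gata2a, active in blood progenitors and in endothelium, by -0.35 ± 0.32. A second, dimmer lmo2 probe differed by -0.63 ± 0.28, with overlapping groups and an adjusted p of 0.692 in limma. Without sorafenib replicates 2 and 3, low in neural markers, tal1 was at 0.03, lmo2 by its brightest probe at -0.28 and gata2a at 0.16. The gene nfe2 differed by -0.09 ± 0.16 and the globin repressor gene bcl11aa by 0.44 ± 0.26. Because tal1, lmo2 and gata2a are also active in endothelium, the endothelial list is given beside them. In that list 19 of 22 measured genes were negative, with a median of -0.43. At an unadjusted p under 0.05, limma held 10 of 22 as lower, beside 3.13% of all probes, though none was called. Without sorafenib replicates 2 and 3 the median was -0.46. With all arrays its mean over genes was 0.12 to 0.34 in controls and -0.34 to -0.13 with sorafenib, and its part in the values of tal1, lmo2 and gata2a was not tested.

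Genes of the red cell membrane and cytoskeleton had a median of 0.11 over 15 measured of 29, with 11 positive. Without sorafenib replicates 2 and 3 the median was -0.03 with 6 positive. The difference of slc4a1a, 1.29, was the largest of the list, and with all arrays it was the only gene of the list with an unadjusted p under 0.05. Among genes of other membrane and skeleton proteins, sptb (spectrin beta) stood at 0.20 ± 0.16, epb41b at 0.29 ± 0.51 and rhag, for the Rh-associated ammonia channel, at 0.11 ± 0.23. Without control replicate 2, epb41b was at -0.22. The carbonic anhydrase gene cahz, which is active in zebrafish red cells, differed by 0.06 ± 0.29 and the related ca2 by 0.45 ± 0.24. The glycophorin gene gypc differed by -1.01 ± 0.82 and was well above background on 2 of 4 sorafenib arrays, and its difference was 0.06 after clipped normexp and 0.43 after normexp. A related anion exchanger gene, slc4a2a, is not a marker of red cells. Its probe was well above background on 0 of 4 control arrays and on all 4 sorafenib arrays. The sorafenib mean was 4.05-fold the lowest measurable signal of the controls, so the fold over the control level was at least that. Because the probe met the filter only through the sorafenib arrays, no p-value is given for it. No probe was matched to slc4a1b, gata1b or hmox1a.

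**Figure D4:**
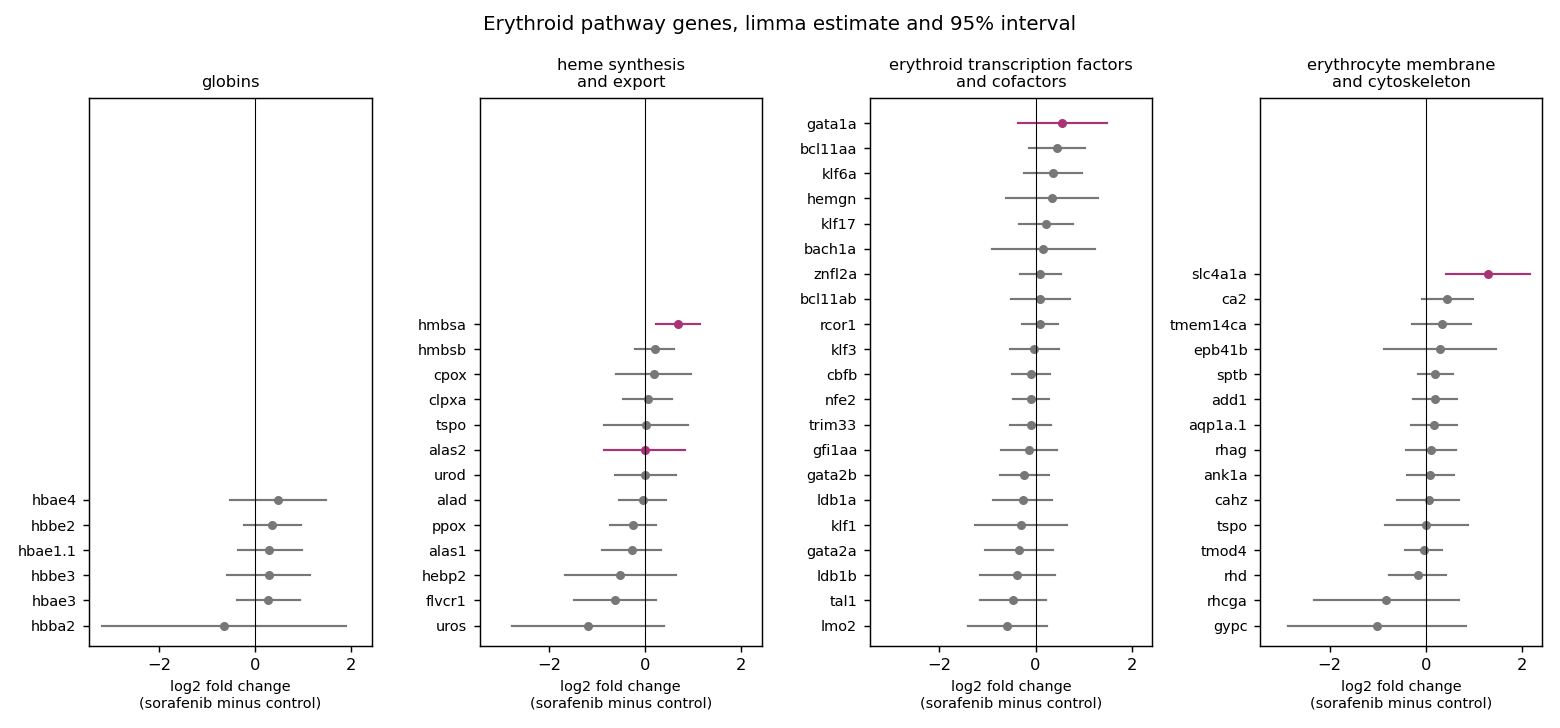
Difference between sorafenib and control (log2 fold change, point) with its 95% interval from limma (line, 4 arrays per group) for measured globin, heme, transcription factor and membrane genes, by the brightest probe. The members are coloured. The intervals of hmbsa and slc4a1a do not reach 0, whereas those of gata1a, alas2 and all other genes shown do, and none passed the adjustment over all probes.

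Enzymes of red cell metabolism and antioxidant defence had a median of 0.23, with 19 of 22 measured genes positive and none called. Without sorafenib replicates 2 and 3 the median was 0.04 and 12 of 22 were positive. Heme oxygenase, which breaks heme down, is encoded by hmox1b. It stood at 0.53, 1.38, 0.59 and 0.24 in controls and 1.88, 2.92, 2.85 and 1.89 with sorafenib. The groups did not overlap (adjusted p = 0.353 in limma). The peroxiredoxin gene prdx2 differed by 0.32 ± 0.21, blvrb, for a biliverdin reductase, by 0.20 ± 0.20, the pyruvate kinase gene pklr of liver and red cells by 0.92 ± 0.36 and the glutathione peroxidase gene gpx1b by 0.53 ± 0.34. Without the same 2 arrays pklr was at 0.50, gpx1b at 0.13, prdx2 at 0.13 and blvrb at -0.03. In erythropoietin signalling and survival, 16 of 28 genes were measured, 13 were positive, and the median was 0.28. Without sorafenib replicates 2 and 3, 10 of 16 were positive and the median was 0.23. The erythropoietin receptor gene epor, well above background on 4 of 8 arrays, differed by 0.11 ± 0.31. In 4 of the 16 measured genes the groups did not overlap, with sorafenib higher, beside 2.18% of all probes, though limma called none of them. They included the cytokine feedback genes socs3a (1.70 ± 0.33) and socs3b (1.22 ± 0.30) and the survival gene mcl1b (0.67 ± 0.19). These genes are active in many tissues, and which cells of the heart gave their signal was not analysed here.

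The lists of other blood cells had medians near that of all genes, though their single genes spread widely. Of 6 measured thrombocyte genes the median was 0.04 (range -0.37 to 0.89), and of 15 measured leukocyte genes 0.06 (-0.41 to 0.78). At an unadjusted p under 0.05, limma held 1 leukocyte gene as higher and none as lower. Without sorafenib replicates 2 and 3 the thrombocyte median was 0.06. The leukocyte median was then -0.24, with 5 of 15 genes positive. Thrombocytes share Gata1 with red cells, and the mean of their genes was -0.32 to 0.21 in controls and -0.28 to 0.32 with sorafenib. Liver genes had 25 of 26 positive with a median of 0.69, heart muscle genes 23 of 24 with 0.39, and all 32 neural genes were negative with -0.56. Without sorafenib replicates 2 and 3 these medians were 0.15, 0.05 and -0.06.

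**Figure D5:**
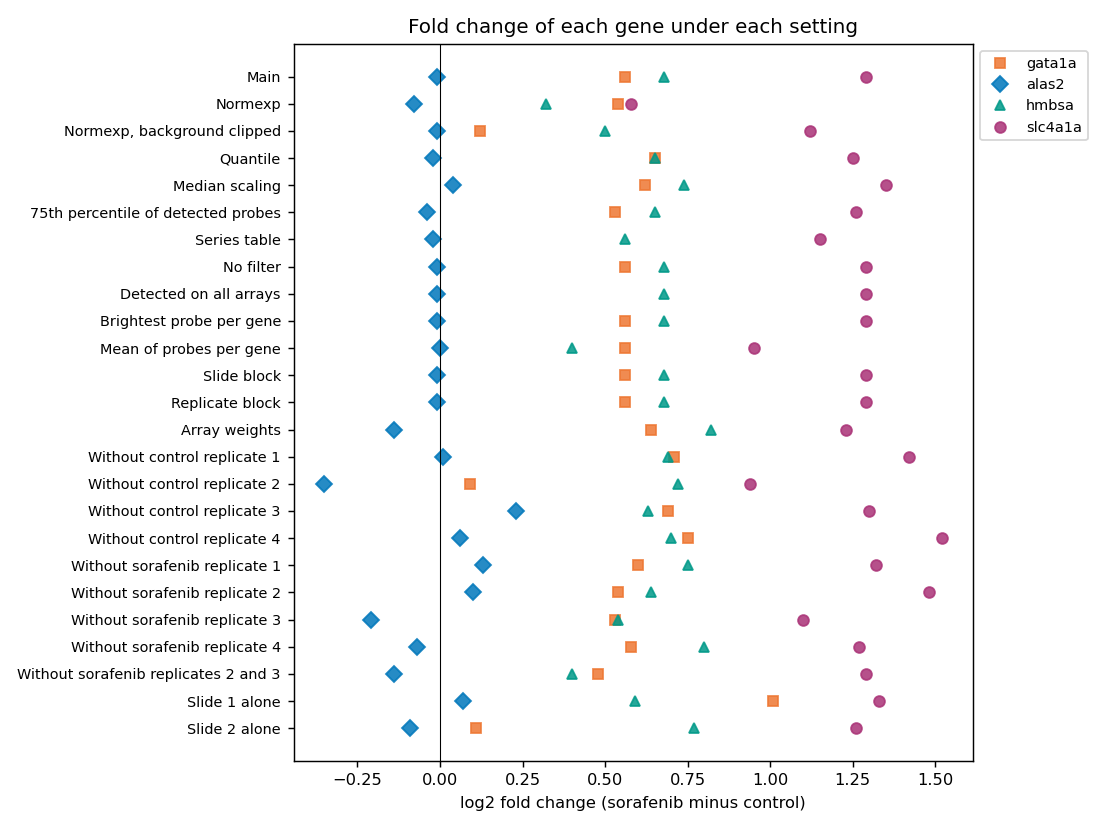
Difference between sorafenib and control (log2 fold change) of each gene by its brightest probe, under the main setting and each alternative. Each mark is the value of a gene under the setting named on the left, and a missing mark is a setting that leaves the probe out. The slc4a1a marks run from 0.58 to 1.52 and the hmbsa marks from 0.32 to 0.82, all above 0, whereas gata1a runs from 0.09 to 1.01 and alas2 lies on both sides of 0.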

How the data were processed

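Hearts of 4 control and 4 sorafenib samples were measured, with groups and numbers taken from the sample titles. The scanner files deposited by the authors give the intensity of each spot, background-subtracted by the scanning software and not normalized between arrays. Per the file headers, Feature Extraction 10.1.1.1 was used and the annotation build is danRer5, whereas the submitters' processing notes name version 8.0. A series table deposited by the authors holds log2 values of 21383 probes. Its columns fitted their own arrays better than any other (r = 0.975 to 0.985) and had medians of 7.20 to 7.22. The sources used here do not give its centring and filter. It has a floor, at which 1103 probes lie on all arrays, and served as an alternative.

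Control spots and the 5 to 15 outlier spots of each array were left out, and spots of a probe were averaged. Of 43603 probes, 19212 carry a RefSeq accession and 15163 (34.78%) were named through RefSeq's genes of GRCz12tu. No coordinates were taken from it, since the builds differ. The brightest probe, by its mean over the 8 arrays, stands for a gene. The main test was limma 3.58.1 in R 4.3.3 (lmFit and eBayes, no covariates) with a threshold of 0.05 on the adjusted p, and it was tested on simulated data. Normexp used an offset of 50 and the median signal. Local background reached 164405 on a few spots of sorafenib replicate 4, so a version clipped at the 99.9th percentile was added after seeing the data, as was the globin mean without hbba2. For gata1a and A_15_P187196 no value of the series table was used. The number of arrays limits the precision. Replicates are separate experiments per the labels, which do not state separate clutches, so p-values measure the spread between these samples.

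The genes named are the 4 members, a set of fixed genes, the 3 genes of smallest p in each red cell list, and the 3 genes most like each member. The members, the lists and these rules were chosen with earlier results of these data known. The genes myl7 and add1 and the array ranges of the marker lists were chosen after their values were seen.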

Additional observations from a re-analysis of the deposited data

Results flagged for a closer look

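Of 110 groups of 4 arrays that were checked, 5 held an array whose gap to the nearest other array was large against the group's range by Dixon's criterion, and chance gives about 1 in 20. In control replicate 2, gata1a was at -5.08, where the nearest control was at -3.27. In the same array epb41b was the lowest control at -1.55 (nearest 0.40), and klf17 the highest at -0.91 (nearest -1.47). In sorafenib replicate 4, lmo2 was at -1.38, above the other sorafenib arrays (nearest -2.72), and tfr1b was at -1.20 (nearest -1.73). By this criterion control replicate 2 stood low in 2 red cell genes and high in another. Short of the criterion, it was also the lowest array for alas2, slc4a1a and 5 globin genes. The cause was not tested.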

How the results depend on the processing

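No alternative brought a member past the adjusted threshold, and the brightest probes of slc4a1a and hmbsa had a positive difference under all of those run. Without each array in turn, the brightest probes ranged from 0.94 to 1.52 (slc4a1a), 0.54 to 0.80 (hmbsa), 0.09 to 0.75 (gata1a) and -0.35 to 0.23 (alas2). The other probes ranged from 0.79 to 1.51 (A_15_P194071), -0.06 to 0.60 (A_15_P187196), -0.16 to 0.51 (A_15_P106857) and -0.26 to 0.19 (A_15_P205966). The sign of alas2 turned with median scaling (0.04) and with the mean of its probes (0.00023). That of A_15_P205966 turned after normexp (-0.0034), with the percentile of detected probes (-0.01), in the series table (-0.01) and with array weights (-0.14). A_15_P106857 turned without sorafenib replicates 2 and 3 (-0.08), and A_15_P187196 with array weights (-0.03). Same-numbered arrays correlated at 0.295, 0.418, 0.047 and 0.709 in their deviations from the group means. Sorafenib replicates 1, 2 and 4 correlated best with the control of their own number, and replicate 3 with control replicate 1. The labels state no pairing, so the main test used none. With the replicate number as a block, slc4a1a stayed at 1.29 (adjusted p = 0.332 in limma). Its SE was 0.25 in place of 0.39. That of alas2 went from 0.38 to 0.21 and that of gata1a from 0.41 to 0.37, while that of hmbsa stayed at 0.2. No member's call changed. With the block, 1614 probes were higher and 1679 lower at an unadjusted p under 0.05, against 993 and 785 without it.

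Probes called higher numbered 0, but 1 after clipped normexp, 2 with quantile scaling, 1 with median scaling, 3 in the series table and 5 with array weights, and 0 to 1 without an array. Called lower were 4 in the series table and 1 with array weights, and 0 without an array. The slc4a1a pair with A_15_P194071 differed by 0.64 after clipped normexp and 0.57 in the series table, at exact adjusted p of 0.0381 and 0.0429, by -0.01 without sorafenib replicates 2 and 3, and by -0.02 to 0.24 without an array. The pair with A_15_P187196 differed by 1.00 after clipped normexp (exact adjusted p = 0.0381) and 0.66 to 1.34 without an array. The hmbsa pair differed by -0.10 after normexp, 0.41 after clipped normexp, 0.52 in the series table and 0.24 to 0.96 without an array, and the alas2 pair by -0.14 to 0.05. The offset of 50 in clipped normexp and the floor of the series table shrink the difference of the dimmer probe of a pair by construction. These p-values therefore say nothing of a difference between the probes. Unclipped normexp did not shrink every dim probe. With it A_15_P106857 was at 0.43, against 0.11 in the main test, and A_15_P187196 at 0.47, against 0.35. Relative to globins, gata1a was at -0.05 after clipped normexp, where the offset also shrinks the difference of its dim probe. Without an array the ranges were 0.12 to 0.59 (gata1a), 0.82 to 1.32 (slc4a1a), 0.35 to 0.78 (hmbsa) and -0.53 to 0.11 (alas2). Unclipped normexp moved the median of all probes to 0.139. The cause of the other shifts was not tested.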
